A study of Mus musculus with 9 samples.

Results

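The MHC class II genes and their transactivator were followed across 9 RNA-seq libraries of BV2 cells, a mouse microglial line immortalised with a retrovirus. The group holds 8 of the 54532 genes in the deposited table, chosen by symbol: H2-Aa, H2-Ab1 and H2-Eb1 (chains of the classical peptide-presenting dimers), Cd74 (the invariant chain), H2-DMa, H2-DMb1 and H2-DMb2 (the peptide editor H2-M) and Ciita (the transactivator). By the coordinates in the table (GRCm38), Cd74 lies on chromosome 18 from 60803848 to 60812646, Ciita on chromosome 16 from 10480059 to 10528418, and the other 6 on chromosome 17 between 34135182 and 34316199. Only 3 of the 8 were expressed, meaning that every library of at least one group held more than 3 reads: Cd74, H2-DMb1 and H2-DMa. The same 3 had a mean of at least 1 FPKM in at least one group.

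The study compared 3 groups of 3 libraries: Control cells in complete medium with 10% serum, cells under oxygen-glucose deprivation (OGD, low-glucose medium with 4% serum and 4% oxygen), and cells under OGD to which A-485, a P300 acetyltransferase inhibitor, was added. The study's methods give 24 h of OGD and 50 μM A-485 for the experiments that led to the transcriptome, and the same settings were taken to apply here. No group received A-485 without OGD, so the inhibitor was seen only on top of deprivation, and OGD cells also had less serum than Control cells. Reads assigned to genes ranged from 12593250 to 16091038 per library. Values are FPKM, reads scaled for gene length and sequencing depth, so levels can be set against each other between genes. A gene was called changed where limma gave an unadjusted p under 0.01 together with a change of more than 0.5 on the log2 scale in either direction, the thresholds of the study. No label says that the libraries of a group came from separate cultures, so p-values measure only the spread between these libraries, which may be technical.

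Class II molecules display peptides from the endocytic route to CD4+ T cells. The α and β chains assemble in the endoplasmic reticulum around the invariant chain, which fills the groove and carries the complex to endosomes, where cathepsins cut it down to the fragment CLIP and H2-M exchanges CLIP for peptide. Transcription depends on CIITA, which binds no DNA itself but docks on an assembly of RFX, CREB and NF-Y proteins at a conserved promoter module, and interferon gamma is the classical inducer of CIITA. Resting microglia hold little class II, and microglia in inflamed or ischaemic brain raise it.

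Promoter sequences are shown because some class II genes with reads and some with almost none carry the same kind of module. Entries of the RefSeq promoter set (GRCm38.p6, 250 bases before to 50 bases after each start) were found for 5 of the 8 members. In the lines that follow, capitals that read GNAAC are the stretch at the left of the X box, the part that RFX contacts. Capitals that read GATTGG are the inverted CCAAT of the Y box that NF-Y contacts. The H2-DMb1 line shows only GNAAC, and the H2-DMb2 line only GATTGG. All lines are on chromosome 17 of GRCm38.p6, on the strand of the gene, 5′ to 3′. From H2-Aa (minus strand, chr17:34287867-34287908), H2-Eb1 (plus strand, chr17:34305771-34305812), H2-DMb1 (plus strand, 30 bases, chr17:34153093-34153122), H2-DMb2 (plus strand, chr17:34145122-34145163) and the chain gene H2-Oa (plus strand, chr17:34092299-34092340) they read:
H2-Aa: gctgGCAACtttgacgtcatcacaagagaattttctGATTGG
H2-Eb1: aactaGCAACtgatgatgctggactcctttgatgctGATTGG
H2-DMb1: cctaGTAACtgatgatgctaggctgattca
H2-DMb2: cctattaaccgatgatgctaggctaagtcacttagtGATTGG
H2-Oa: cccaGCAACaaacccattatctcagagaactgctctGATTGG

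The pair of motifs, GNAAC followed after 24 to 27 bases by GATTGG, was searched on both strands, and the motifs do not overlap each other. It was set after these promoters had been looked at. The pair stood in H2-Aa, H2-Eb1 and H2-DMb1, and in the other chain genes H2-Oa, H2-Ob and H2-Eb2. In H2-DMb1 the GATTGG lies beyond the 30 bases shown. H2-DMb2 had GATTGG without the GNAAC block. Both windows listed for H2-DMa, which lie before the start that the table gives for the gene, were without the pair, and one of them held GATTGG. The pair occurred in 77 of 32851 promoters (0.234%) and GATTGG in 16.1%. H2-Aa and H2-Eb1, which had almost no reads, and H2-DMb1 and H2-Oa, which were expressed, thus shared the letters of the module. These matches describe the sequence and say nothing of which proteins were bound.

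**Figure D1:**
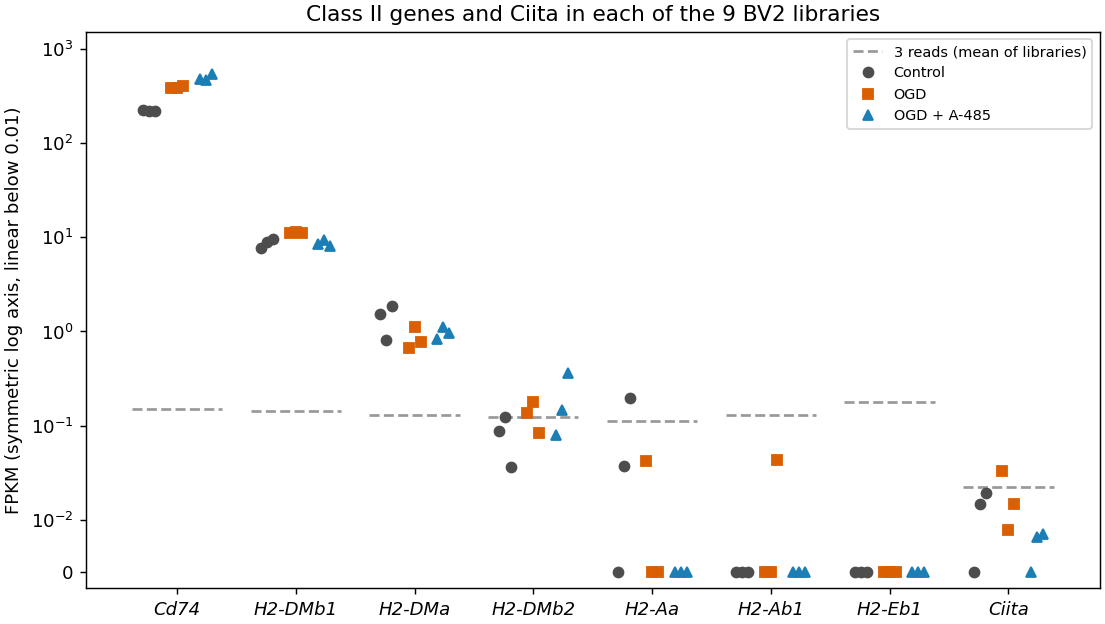
FPKM of the 8 members in each of the 9 libraries, on a symmetric log axis that is linear below 0.01, with dashes at the level that 3 reads give (mean over libraries). Cd74 spans 216 to 538 FPKM, H2-DMb1 7.71 to 11.3 and H2-DMa 0.670 to 1.88, while the other 5 members have at most 9 reads in any library.

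The chains that form the classical dimers were not detected above a few reads. H2-Eb1 had 0 reads in all 9 libraries, which allows a level of up to 0.156 to 0.199 FPKM, the level of 3 reads in each library. H2-Ab1 had 1 read in all, in OGD replicate 3. H2-Aa had 0, 1 and 6 reads in the Control libraries, 1, 0 and 0 with OGD, and 0 in each A-485 library. The 3 genes thus held 9 reads together, 6 of them in Control replicate 3, and neither OGD nor A-485 brought any of them above the level of 3 reads. Such limits cover counting error only. In these bulk libraries fewer cells of a kind and less RNA per cell cannot be told apart.

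The transactivator itself was close to undetected. Ciita had 0, 2 and 3 reads in Control, 4, 1 and 2 with OGD, and 0, 1 and 1 with A-485, 14 reads in all over a gene model of 9535 bases. The highest library, OGD replicate 1, reached 0.0330 FPKM. In FPKM the OGD and A-485 values did not overlap, but this rested on 7 against 2 reads. OGD replicate 2 and A-485 replicates 2 and 3 had 1 read each, so their FPKM (0.00806, 0.00664 and 0.00727) differed by library scaling alone. The exact permutation test of 3 against 3 libraries on FPKM (two-sided) gave p = 0.1, the smallest it can give. Dexi, a gene on the opposite strand, overlaps Ciita and had 784 reads, and how the counting treated strand is not given in the sources used here.

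Cd74, the chaperone of the class II chains, was by far the highest member. The Control libraries held 223, 220 and 216 FPKM, the OGD libraries 380, 382 and 404, and the A-485 libraries 477, 465 and 538. The 3 groups did not overlap, and the order Control, OGD, OGD with A-485 held for every library. These values rest on 4203 to 10930 reads per library, and Cd74 ranked between 67 and 142 by FPKM among all genes. The small RNA gene Mir5107 lies inside it and had 43 reads in all. Within each library Cd74 was at least 1176-fold higher than the level that 3 reads of H2-Eb1 would give.

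Cd74 rose with OGD by 1.77-fold (log2 fold change 0.82 ± 0.06 SE, limma with Benjamini-Hochberg adjusted p = 9.45e-06, higher in 3 of 3 libraries). It was the only one of the 3 tested members called in that comparison, where 11.2% of the 16123 tested genes were called higher and 9.81% lower. With A-485 added to OGD it was 1.27-fold higher again (log2 fold change 0.34, 95% interval 0.21 to 0.48, adjusted p = 0.00122), a difference beyond the spread between libraries but under the fold threshold, so it was not called. Against Control the A-485 group was 2.24-fold higher (log2 fold change 1.16 ± 0.06 SE, adjusted p = 4.65e-07). Under quantile normalization these differences were smaller, 0.55 with OGD, 0.14 for A-485 against OGD and 0.69 for A-485 against Control on the log2 scale, and the first and last were still called. Both A-485 comparisons share libraries with the OGD comparison, so they are not independent of it.

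**Figure D2:**
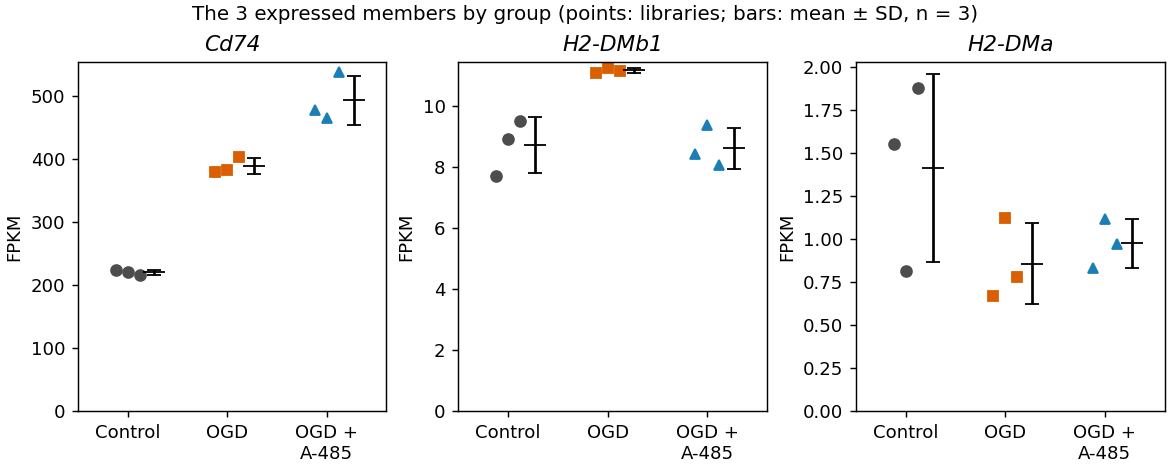
FPKM of Cd74, H2-DMb1 and H2-DMa (vertical axes from 0, scaled per gene) in Control, OGD and OGD with A-485; each point is a library and the bar beside the points is the mean ± SD (n = 3). Cd74 steps up from Control to OGD to A-485, H2-DMb1 is highest in the OGD libraries, and the H2-DMa groups overlap.

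H2-DMb1, the β chain of the peptide editor, had another course. It held 7.71, 8.93 and 9.52 FPKM in Control, 11.1, 11.3 and 11.2 with OGD, and 8.43, 9.38 and 8.08 with A-485. Every OGD library lay above every other library, and the Control and A-485 libraries overlapped. The OGD difference was 0.36 on the log2 scale (95% interval 0.17 to 0.55, adjusted p = 0.00688 in limma), and the A-485 difference from OGD was -0.37 (95% interval -0.56 to -0.18, adjusted p = 0.00505). Neither reached the fold threshold. Between A-485 and Control the difference was -0.01 (95% interval -0.20 to 0.18, adjusted p = 0.914). With A-485 against OGD no tested member was called in limma or with voom weights, while 1 was higher and 1 lower at an unadjusted p under 0.05. In that comparison 12.2% of tested genes were called higher and 13.4% lower, and 8036 of the 16123 passed an adjusted p under 0.05. With A-485 against Control only Cd74 was called, beside 17% of tested genes called higher and 16.6% lower. When the median change of the 50 genes around it was taken off, the A-485 difference of H2-DMb1 from OGD became -0.51 and passed the call.

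H2-DMa, the partner chain of H2-DMb1, was low and variable. Its libraries held 1.55, 0.813 and 1.88 FPKM in Control, 0.670, 1.12 and 0.780 with OGD, and 0.834, 1.12 and 0.972 with A-485. All groups overlapped, since Control replicate 2 lay among the treated libraries. These values rest on 14 to 50 reads per library. The OGD difference was -0.62 on the log2 scale (95% interval -1.30 to 0.07, adjusted p = 0.131 in limma), and without Control replicate 2 it was -0.95 and passed the call. The other differences were 0.19 (95% interval -0.50 to 0.87) for A-485 against OGD and -0.43 (95% interval -1.12 to 0.26) for A-485 against Control.

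The second β chain gene, H2-DMb2, stayed near the limit with 2, 3 and 1 reads in Control, 3, 4 and 2 with OGD, and 2, 4 and 9 with A-485. The groups overlapped, and the exact permutation p-values were 0.3, 0.7 and 0.3 for OGD against Control, A-485 against OGD and A-485 against Control. H2-DMb1 and H2-DMb2 are close copies: 27.2% of the 50-base windows of H2-DMb1 transcripts also occur in H2-DMb2, so some reads of the lower gene could belong to the higher one, and values of both are uncertain to that extent.

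By level the members ran Cd74, H2-DMb1, H2-DMa, H2-DMb2, with library values that did not overlap between neighbours in that order. H2-DMb2 overlapped H2-Aa, and the ranges of H2-Aa, H2-Ab1, H2-Eb1 and Ciita all included or came near 0, so no order among these was read. The 2 chains of the editor were not level: the ratio of H2-DMb1 to H2-DMa in FPKM was 7.01 ± 3.45 (SD, n = 3) in Control, 13.6 ± 3.32 with OGD and 8.94 ± 1.02 with A-485, and all 3 ranges overlapped. The ratio of Cd74 to H2-DMb1 was 25.4 ± 3.17 in Control, 34.8 ± 1.25 with OGD and 57.6 ± 8.52 with A-485, and these ranges did not overlap.

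Of the class II genes outside the group, the H2-O chain H2-Oa, part of an inhibitor of H2-M, was expressed. Its libraries held 5.81, 6.52 and 5.55 FPKM in Control, 9.69, 7.89 and 9.20 with OGD, and 7.76, 6.94 and 7.55 with A-485. H2-Oa rose with OGD (log2 fold change 0.57 ± 0.09 SE, adjusted p = 0.000913 in limma), and its A-485 libraries lay between the other groups. Its partner H2-Ob had 3 reads in all and H2-Eb2 had 1. H2-O was thus detected through one chain, as H2-M was mainly through H2-DMb1.

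Transcripts of the DNA-bound factors on which CIITA docks were detected in every group. All 10 listed factors and co-activators passed the filter on low values. With OGD 1 of 10 was called, beside 9.81% of all tested genes called lower. This was the NF-Y subunit gene Nfyc, which fell (14.2 ± 0.913 FPKM in Control, 9.20 ± 0.386 with OGD, log2 fold change -0.62, adjusted p = 3.56e-05). With A-485 against OGD 2 of 10 were called and both are RFX subunits that fell, beside 13.4% of all tested genes called lower. Both counts lie near these shares. Rfx5, the DNA-binding subunit, held 4.14, 4.35 and 4.21 FPKM in Control, 4.36, 5.11 and 4.79 with OGD and 2.10, 2.05 and 1.70 with A-485. Every A-485 library lay under every other library, at a log2 fold change from OGD of -1.24 ± 0.10 SE (adjusted p = 1.07e-05). Rfxank, a second subunit, fell by 0.54 on the log2 scale (adjusted p = 0.00835), but lost its call without OGD replicate 1 (-0.52) or without A-485 replicate 2 (-0.49) or 3 (-0.44). The third subunit gene, Rfxap, was not called. Ep300, which codes for P300, was at 12.8 ± 0.199 FPKM with OGD and 14.6 ± 1.15 with A-485 and was not called. The listed co-activator gene Crebbp went from 4.99 ± 0.155 FPKM with OGD to 6.60 ± 0.567 with A-485. That difference (log2 fold change 0.40, adjusted p = 0.00132 in limma) was under the fold threshold, so Crebbp was not called either. The median log2 fold change of the 10 was -0.13 with OGD and 0.18 with A-485 against OGD, beside 0.01 for all tested genes in both comparisons.

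The genes listed around the route from interferon gamma to CIITA had no call with OGD, and some of them rose with A-485. Ifng itself had 0 reads in every library, and 12 of the 13 listed genes were tested. With OGD none was called in limma or with voom weights, beside 11.2% of all tested genes called higher and 9.81% lower in limma. At an unadjusted p under 0.05 6 were higher and 1 was lower, and the share of all genes at that level was not computed. At an adjusted p under 0.05, 7300 of the 16123 tested genes passed in this comparison. With A-485 against OGD 5 of 12 rose, beside 12.2% of all tested genes: the receptor chains Ifngr1 (log2 fold change 0.71) and Ifngr2 (0.80), the transcription factors Irf1 (0.84) and Spi1 (1.35), and the feedback inhibitor Socs3 (0.58, and 0.41 without a call once the median of its neighbours was taken off). Socs1, also listed, was at -0.27 for A-485 against OGD and -0.77 for A-485 against Control, not called in limma. With voom weights Socs1 was called lower against Control, on 13 to 25 reads per A-485 library. Spi1, which codes for PU.1, a regulator of the myeloid promoter of Ciita, held 44.1, 44.6 and 42.9 FPKM in Control, 41.2, 34.8 and 39.5 with OGD, and 99.3, 90.9 and 104 with A-485. Every A-485 library lay far above every other library. Ciita reads stayed at 0, 1 and 1 in the same A-485 libraries.

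Most of the 10 listed genes that process the invariant chain and antigen rose with A-485. With OGD 1 of 10 was called, near the 9.81% of all tested genes called lower. It was the lysosomal thiol reductase gene Ifi30, which fell by 0.54 on the log2 scale (adjusted p = 9.71e-05 in limma). When OGD replicate 2 was left out Ifi30 fell by 0.49, without a call. With A-485 against OGD 8 of 10 rose at a median log2 fold change of 1.01 over the 10, beside 12.2% of all tested genes called higher and a median of 0.01. They were the protease genes Ctss, Ctsb, Ctsd, Ctsc, Ctsz and Lgmn, the reductase gene Ifi30, and Cst3, which codes for the protease inhibitor cystatin C. In the same comparison 9 of 12 tested microglia and macrophage markers rose (median 0.94), and their part in the result was not tested. The same 8 rose with A-485 against Control, beside 17% of all tested genes called higher. Ctss, the cathepsin that makes the last cut of the invariant chain in most antigen-presenting cells, held 123, 128 and 122 FPKM in Control, 146, 135 and 131 with OGD, and 369, 372 and 400 with A-485. Its rise from OGD was 2.77-fold (log2 fold change 1.47 ± 0.05 SE, adjusted p = 1.32e-07). The ratio of Cd74 to Ctss went from 1.77 ± 0.0456 (SD, n = 3) in Control to 2.84 ± 0.241 with OGD and 1.30 ± 0.0481 with A-485, and these ranges did not overlap. The cathepsin L gene Ctsl and the intramembrane protease gene Sppl2a, which clears the stub of the invariant chain, were the 2 not called, with log2 fold changes of 0.31 and 0.36 for A-485 against OGD.

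Among the 3 genes that set class II turnover at the surface, the ubiquitin ligase gene March1 had 0 reads in the 6 libraries without A-485 and 7, 11 and 9 with it. Its A-485 mean of 0.0839 FPKM was at least 2.55-fold higher than the level of 3 reads in any OGD library (exact permutation p = 0.1 against OGD, two-sided, the smallest possible). Cd83, which shields class II from March1, rose with A-485 from 11.8 ± 0.850 to 16.8 ± 0.270 FPKM (log2 fold change 0.50 ± 0.06 SE, adjusted p = 0.000139 in limma). It lay at the edge of the fold threshold and lost its call without OGD replicate 3 (0.45) or A-485 replicate 3 (0.49). The related ligase gene March8 was not called.

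**Figure D3:**
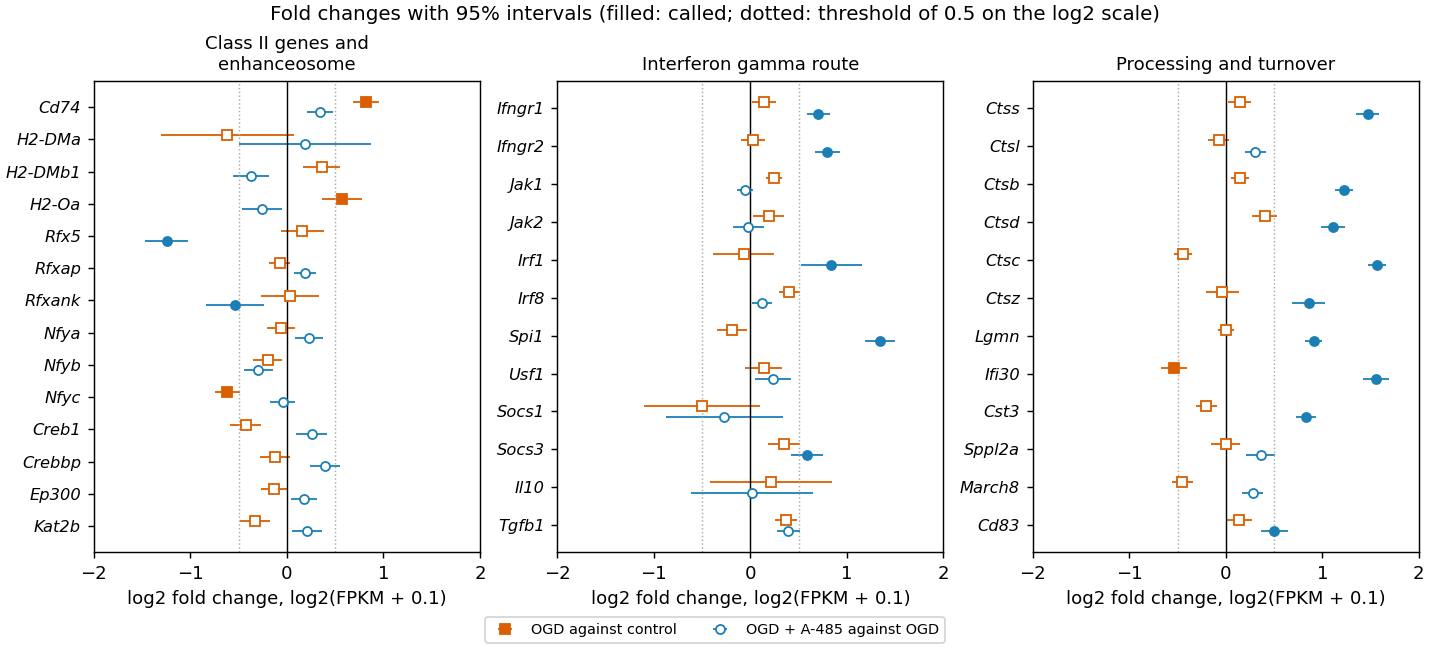
Log2 fold changes on the log2(FPKM + 0.1) scale with 95% intervals for the tested genes of the class II route, OGD against Control (squares) and OGD with A-485 against OGD (circles); filled symbols were called and dotted lines mark 0.5. The processing genes lie to the right for A-485, Rfx5 lies to the left at -1.24, and the estimates for the class II members lie between -0.62 and 0.82.

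The genes around the chromosome 17 members were compared next, since class I presentation genes lie among them. From 33885182 to 34566199, 250 kb beyond the outer members, the table lists 55 other genes, 27 of them tested. With OGD 3 were called higher (11.1%) and 4 lower (14.8%), near the 11.2% and 9.81% of all tested genes, at a median log2 fold change of 0.00. With A-485 against OGD 11 were called higher (40.7%, beside 12.2% of all tested genes) and 2 lower (7.41%, beside 13.4%), at a median of 0.33 beside 0.01 for all tested genes. These included the immunoproteasome genes Psmb8 (log2 fold change 1.12) and Psmb9 (0.95), the peptide transporter gene Tap2 (1.24) and the tapasin gene Tapbp (0.81). Tap2 had been called lower with OGD (-0.86), and for A-485 against Control it was not called (0.38). Psmb8 (0.82), Psmb9 (0.96) and Tapbp (0.81) were called higher for A-485 against Control. Other class I genes of the region were not called higher from OGD to A-485. Tap1, the gene of the partner transporter chain, was at -0.13 (adjusted p = 0.340 in limma). H2-K1 rose by 0.16 (adjusted p = 0.0126), under the fold threshold, and H2-K2 was called lower (-0.68). H2-K1 had already been called higher with OGD (0.53), and it was called higher for A-485 against Control (0.69). Psmb9, Psmb8 and Tap2 start 28.9, 44.6 and 50.5 kb after the start of H2-DMb1, between it and H2-Ab1, with Tap1 among them at 34.5 kb. For A-485 against OGD H2-DMb1 lay at -0.37, and H2-Ab1, H2-Aa and H2-Eb1 had 0 reads in the A-485 libraries.

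**Figure D4:**
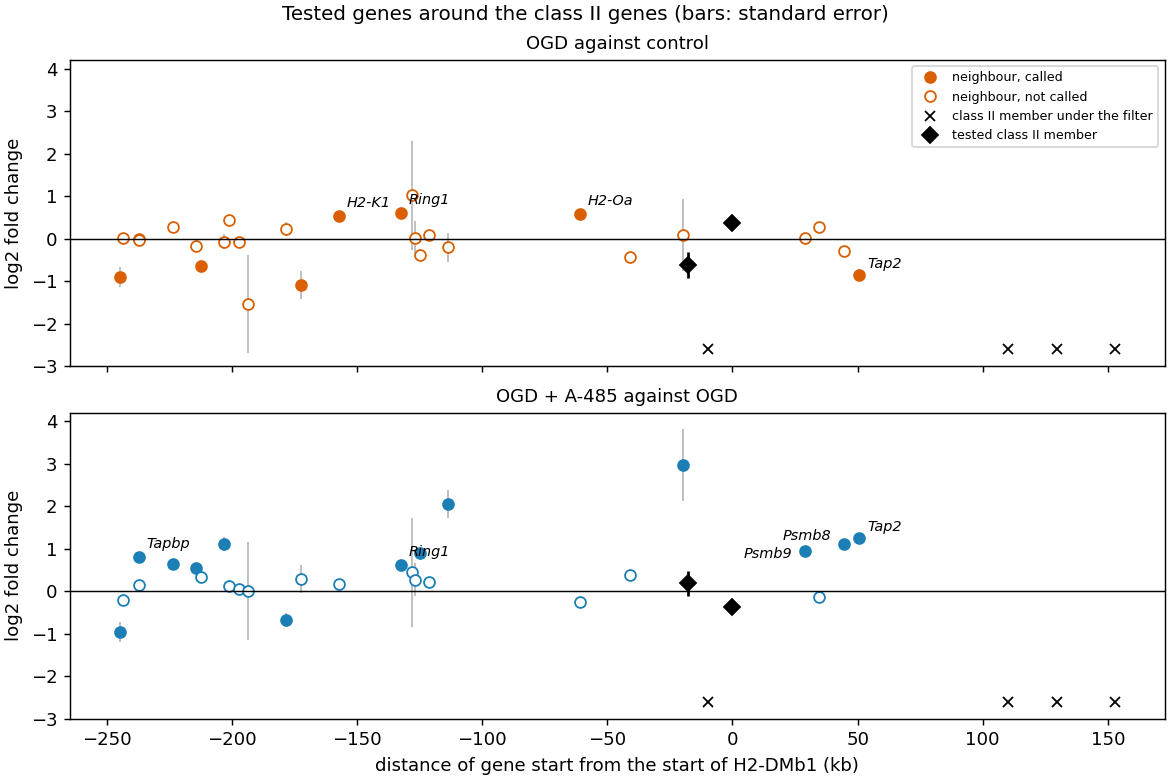
Log2 fold change (± SE) of the tested genes around the class II genes against the distance of their start from that of H2-DMb1 in kb, for OGD against Control (top) and OGD with A-485 against OGD (bottom). Filled circles were called, diamonds are H2-DMa and H2-DMb1, and crosses at a fixed height mark members under the filter. Psmb9, Psmb8 and Tap2 rise with A-485 to the right of H2-DMb1, between it and 3 of the crosses, while Tap1, the open circle among them, lies at -0.13.

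The genes whose course over the 9 libraries was most like that of each expressed member were found by Pearson r of log2(FPKM + 0.1), a description over libraries that fall in 3 groups. For Cd74 they were Dhrs1, Ptk2b and Tec (r = 0.996 each). Ptk2b, a cytoplasmic tyrosine kinase, went from 25.1 ± 0.674 FPKM in Control to 43.9 ± 1.44 with OGD and 58.2 ± 2.58 with A-485. For H2-DMb1 they were Fkbp7 (0.963), Isca1 (0.957) and Helb (0.947), which were also highest with OGD. For H2-DMa they were Pcna-ps2 (0.926), Zfp938 (0.893) and Atf2 (0.890).

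The label of the cells was checked against marker genes. Of 13 microglia and macrophage markers 12 had a mean of at least 1 FPKM over the 9 libraries, and P2ry12, a marker of resting microglia, had at most 0.298 FPKM in any library. Among the 12, Aif1 had a group mean above 1 only with A-485 (0.613 FPKM in Control, 0.889 with OGD and 2.57 with A-485). The summed level of the 13 markers was 562 to 583 FPKM in Control, 739 to 759 with OGD and 1301 to 1334 with A-485, so it moved in the same order as Cd74, and its part in the result for Cd74 was not tested. B cells and dendritic cells hold high class II. The 5 B cell markers summed to 0.202 to 1.59 FPKM over all libraries. The 6 dendritic cell markers summed to 8.24 to 9.26 in Control, 17.8 to 19.9 with OGD and 11.5 to 12.9 with A-485. This was nearly all Itgax, an integrin that macrophages also express (8.27 ± 0.564, 18.6 ± 1.03 and 11.7 ± 0.640 FPKM), and Siglech was at 0 in every library. The astrocyte, neuron, oligodendrocyte and stromal markers, each list summed on its own, reached at most 2.36 FPKM in any library.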

How the data were processed

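RNA of BV2 cells was sequenced in 9 libraries (Control, OGD and OGD with A-485, 3 each). According to the study's methods, the authors removed low-quality reads, counted reads per gene with featureCounts and deposited FPKM; the submitters' processing notes name GRCm38 and mm10, and the aligner is not given in the sources used here. The deposited FPKM values were whole multiples of 1 read (100% of values above 0, within 0.01 reads), so reads were recovered from them and used for read numbers, for the level of 3 reads and in one alternative. Members and gene lists were chosen with earlier results of these data known. One listed gene is not reported here. The 16123 genes averaging 0.2 FPKM or more over all libraries, 3 of the 8 members among them, were tested on log2(FPKM + 0.1) with limma 3.58.1 in R 4.3.3, all groups in one fit with a trended prior variance; the pseudocount shrinks the fold changes of low genes. P-values were adjusted by Benjamini-Hochberg over all genes tested. Members under the filter were compared by the exact permutation test. The code was tested on simulated data. The text names the 8 members, genes of the fixed lists, called genes of the neighbourhood and, per expressed member, the 3 genes with the highest r, leaving out Gm and Rik symbols. Among the symbols, 27 had been turned into dates, and these genes were found by gene ID. No 2 libraries of a group agreed within sampling noise. Alternatives covered the pseudocount, filter, scaling, threshold, prior variance, the samples in the fit, a replicate block, voom weights on recovered reads, the median of neighbouring genes and leaving out each library.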

Additional observations from a re-analysis of the deposited data

How the results depend on the processing

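Cd74 was called with OGD, and with A-485 against Control, under every alternative run, with log2 fold changes of 0.55 (quantile normalization) to 0.84 and 0.69 (quantile normalization) to 1.20 over all of them. Counts moved mainly with the threshold: at an adjusted p under 0.05 with no fold minimum, 2 members passed with OGD (Cd74 and H2-DMb1) and 2 with A-485 against OGD, the genes called overall were 7300, 8036 and 9130 for OGD against Control, A-485 against OGD and A-485 against Control (3384, 4139 and 5431 in the text), and 11 neighbouring genes passed with OGD. Taking off the median of the 50 neighbouring genes called 1 member with A-485 against OGD, H2-DMb1. Leaving out a library gave 1 to 2 members called with OGD, 2 without Control replicate 2, where H2-DMa passed. The difference of H2-DMb1 between A-485 and Control, close to 0, changed sign under quantile normalization (0.029) and, with single libraries left out, ranged from -0.097 to 0.053, with 0.0026 to 0.053 where it turned. Rps18, one of the neighbours called with A-485 against Control, was at -0.0023 under quantile normalization; the cause was not tested. Calls of Cd83 and Rfxank with A-485 against OGD, near the fold threshold, were lost under some alternatives. Replicate numbers did not pair the samples (mean r of deviations -0.0023 for the same number and 0.0012 for different ones); a replicate block left 1, 0 and 1 members called in the 3 comparisons, and 3288, 4046 and 5317 genes. Voom on the recovered reads called 3604, 4333 and 5676 genes. Depth limits the 5 members under the filter and H2-DMa, whose values rest on few reads.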
